A study of Mus musculus with 9 samples.

Results

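Cathepsins are proteases of the lysosome and of related granules, and cystatins and Ctla2 proteins hold part of them in check. The 10 genes described here are 6 cathepsin genes (Ctsw, Ctsb, Ctsc, Ctsd, Ctsl and Ctss) and 4 inhibitor genes (Cst7, Cst3, Ctla2a and Ctla2b). They were listed by name out of 48663 entries of a mouse gene count table, of which 26449 had a count in some library. All 10 passed the filter on low counts, as did 15738 genes in all. The list was selected on differences measured in these same libraries. The levels, fold changes and calls of the 10 genes are therefore a description, and no p-value is given for them.

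RNA was sequenced from sorted splenic T cells on day 30 of infection with LCMV Armstrong, a strain of lymphocytic choriomeningitis virus that mice clear. CD4 ThpokAD cells bound the tetramer GP66:I-Ab, which picks out CD4 T cells specific for a viral glycoprotein peptide, and came from Ox40-Cre+ Thpokfl/fl mice. CD8 control cells bound the tetramer GP33:H-2Db, which picks out CD8 T cells specific for another peptide of that glycoprotein, and came from Ox40-Cre- mice. CD4 control cells bound GP66:I-Ab and came from Ox40-Cre- mice. Each group had 3 libraries. Thpok is the product of Zbtb7b, a transcription factor that maintains the CD4 helper programme, and Ox40 is a receptor that CD4 T cells display after activation, so that Cre acts after cells have been activated. The Cre transgene was present only in the CD4 ThpokAD mice, so its own effect and that of Thpok loss cannot be told apart. The CD8 control cells differ from both CD4 groups in lineage, peptide, tetramer and sort at once. The labels do not say whether the replicates came from separate animals, so that errors may measure technical spread only.

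The libraries held 18517118 to 20245185 counts in CD4 ThpokAD, 19850495 to 38981516 in CD8 control and 16664474 to 18357021 in CD4 control. Levels are given as CPM, counts relative to library size after scaling between libraries. Zbtb7b measured 0.807 ± 0.0953 CPM in CD4 ThpokAD, 20.8 ± 2.87 CPM in CD8 control and 45.0 ± 5.68 CPM in CD4 control (SD, n = 3 each). Cd4 averaged 635 CPM in CD4 ThpokAD, 1.28 CPM in CD8 control and 1354 CPM in CD4 control. Cd8b1 averaged 56.4 CPM in CD4 ThpokAD, 2379 CPM in CD8 control and 18.3 CPM in CD4 control. The 3 comparisons between groups share libraries and are not independent of one another. These are bulk samples, so more transcript per cell and more cells that carry the transcript cannot be told apart.

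Most cathepsins are made as inactive precursors with a propeptide that blocks the active site until it is cut off in an acidic compartment. In cytotoxic lymphocytes cathepsin C trims granzymes into their active form inside granules, and cystatin F, the product of Cst7, is known to inhibit cathepsin C there. In antigen-presenting cells cathepsin S and cathepsin L cut the invariant chain that guards MHC class II molecules. Cystatin C, the product of Cst3, is a secreted inhibitor made by most cells. Ctla2a and Ctla2b were found in activated mouse T cells and mast cells and encode small proteins that resemble a cathepsin propeptide without the protease.

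The 10 genes together took 0.278% to 0.301% of all counts in the CD4 ThpokAD libraries, 0.311% to 0.361% in the CD8 control libraries and 0.170% to 0.192% in the CD4 control libraries. They split by pattern. Ctsw, Ctsd, Cst7, Ctla2a and Ctla2b were higher in CD4 ThpokAD and in CD8 control than in CD4 control. Ctsb and Ctss overlapped in level between both CD4 groups and lower in CD8 control. Ctsl was highest in CD4 control, Ctsc highest on average in CD4 ThpokAD, and Cst3 nearly level in all 3 groups.

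**Figure D1:**
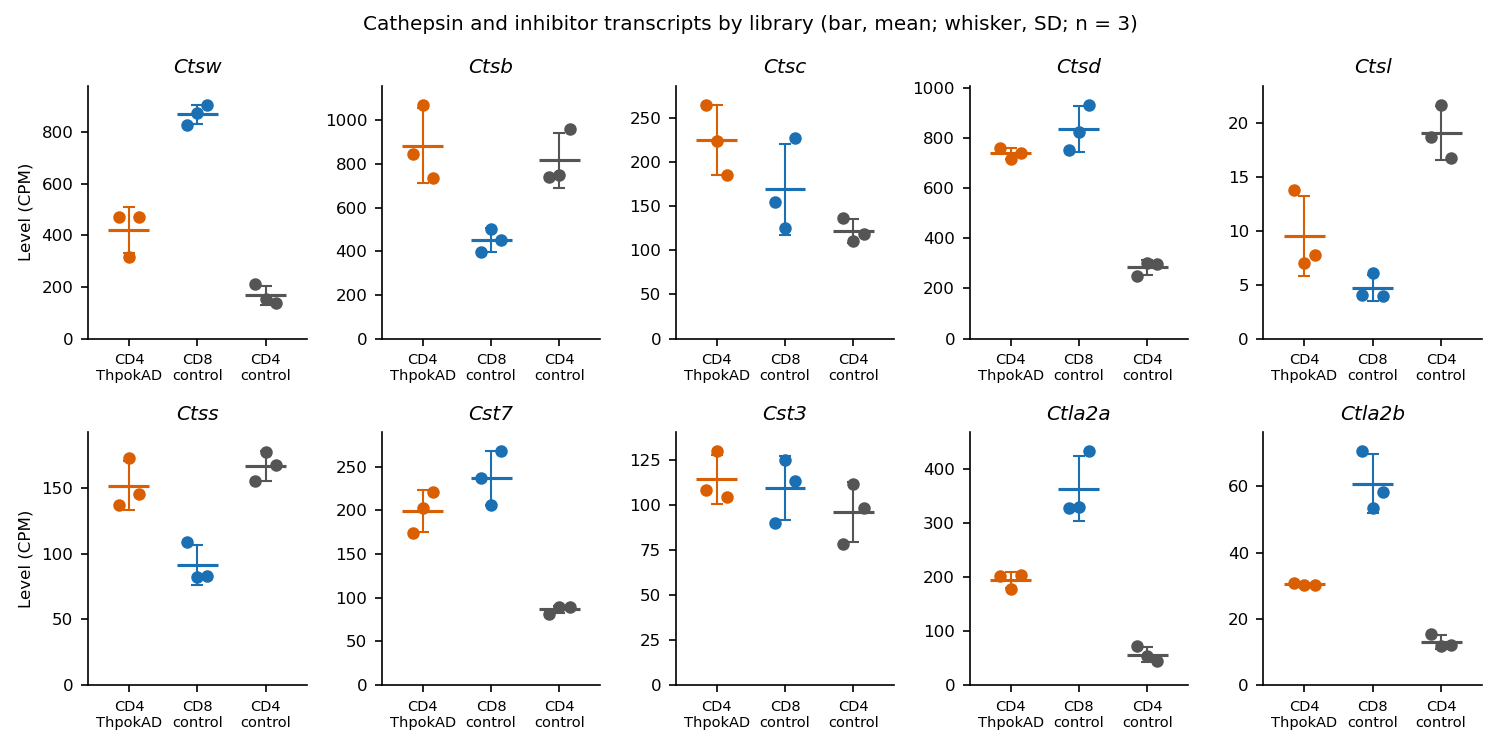
Levels in CPM (y axes, each starting at 0) of the 10 genes in the 3 libraries of each group, with a bar for the mean and a whisker for the SD. For Ctsd and Cst7 the CD4 ThpokAD and CD8 control points share a range above CD4 control, whereas for Ctsw, Ctla2a and Ctla2b the CD4 ThpokAD points lie between the other groups.

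Cathepsin W, the product of Ctsw, is a cysteine cathepsin known mainly from cytotoxic T cells and natural killer (NK) cells. Its gene lies at chr19:5465043-5468507 on the minus strand (GRCm38). Ctsw measured 471, 317 and 469 CPM in the CD4 ThpokAD libraries, 828, 873 and 903 CPM in the CD8 control libraries and 209, 153 and 139 CPM in the CD4 control libraries. No library of one group reached the range of another, and CD4 ThpokAD lay between the controls. The log2 fold change was 1.33 (95% interval 0.89 to 1.77) for CD4 ThpokAD against CD4 control, a ratio of 2.51. It was 2.38 for CD8 control against CD4 control and -1.05 (95% interval -1.49 to -0.61) for CD4 ThpokAD against CD8 control.

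Cathepsin D, the product of Ctsd, is an aspartic protease found in the lysosomes of nearly all cells. Its gene lies at chr7:142375911-142388038 on the minus strand. Ctsd measured 759, 716 and 739.8 CPM in CD4 ThpokAD, against 750.2, 822 and 932 CPM in CD8 control and against 251, 303 and 298 CPM in CD4 control. The CD4 ThpokAD and CD8 control libraries overlapped, and both groups lay wholly above CD4 control. The log2 fold change against CD4 control was 1.38 (SE 0.117) in CD4 ThpokAD and 1.56 (SE 0.117) in CD8 control. The difference of CD4 ThpokAD from CD8 control was -0.18 on the log2 scale, with an interval of -0.44 to 0.08.

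The Ctsd promoter is shown because it holds the palindrome TCACGTGA, the core of the element bound by TFEB, a regulator of lysosomal genes. The motif was searched in the 250 bases before the RefSeq start of each gene, where it reads the same on both strands, and 0.785% of 32851 RefSeq promoters hold it. It begins 99 bases before the RefSeq start of Ctsd. The gene span given above is from another annotation, GENCODE M21, which begins farther upstream and includes this stretch. The 30 bases around it lie at chr7:142387908-142387937 on the minus strand of GRCm38.p6, and capitals mark the motif.
Ctsd: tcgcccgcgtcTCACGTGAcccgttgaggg
The match is a description of the sequence, and no binding was measured here.

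Cathepsin C, the product of Ctsc at chr7:88278085-88310888 on the plus strand, is the dipeptidyl peptidase that activates granzymes. Ctsc measured 265, 224 and 186 CPM in CD4 ThpokAD, against 154, 125 and 226 CPM in CD8 control and against 137, 110.5 and 118 CPM in CD4 control. All CD4 ThpokAD libraries lay above all CD4 control libraries, while the CD8 control libraries spread across both ranges. CD4 ThpokAD against CD4 control gave a log2 fold change of 0.88 (95% interval 0.37 to 1.40) and did not pass the adjusted threshold used across all genes. With DESeq2, with only the 6 libraries compared, or without CD8 control replicate 3, it did pass. CD8 control against CD4 control gave 0.47 (95% interval -0.04 to 0.98).

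Cathepsin B, the product of Ctsb at chr14:63122462-63145923 on the plus strand, is a broadly expressed lysosomal cysteine protease. Ctsb measured 848, 1072 and 735 CPM in CD4 ThpokAD, against 396, 504 and 452 CPM in CD8 control and against 739, 749.9 and 963 CPM in CD4 control. Both CD4 groups overlapped and lay above every CD8 control library. CD4 ThpokAD differed from CD4 control by 0.11 on the log2 scale, with an interval of -0.27 to 0.50. The difference was -0.86 for CD8 control against CD4 control and 0.97 (95% interval 0.59 to 1.36) for CD4 ThpokAD against CD8 control. Ctsb shares 774 exon bases, 12.8% of its exon length, with Fdft1 on the opposite strand. The libraries do not mark strand, and Fdft1 had 3951 counts over all 9 libraries against 50445, 38199 and 41534 for Ctsb in CD4 ThpokAD, CD8 control and CD4 control.

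Cathepsin S, the product of Ctss at chr3:95526786-95556403 on the plus strand, is the main protease that removes the invariant chain in B cells and dendritic cells. Ctss measured 137, 172 and 145 CPM in CD4 ThpokAD, against 109, 82.1 and 83.0 CPM in CD8 control and against 155, 178 and 167 CPM in CD4 control. Here too the CD4 groups overlapped and every CD8 control library was lower. CD4 ThpokAD differed from CD4 control by -0.14 on the log2 scale, with an interval of -0.48 to 0.21. The difference was -0.87 for CD8 control against CD4 control and 0.73 for CD4 ThpokAD against CD8 control. That last call was lost when any of 4 libraries was left out (CD4 ThpokAD replicate 2 or 3, CD8 control replicate 2 or 3) and with only the 6 libraries compared.

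Cathepsin L, the product of Ctsl at chr13:64359337-64370890 on the minus strand, cuts the invariant chain in the thymic epithelium and acts in lysosomes of many cells. Ctsl had 551 counts in CD4 ThpokAD, 384 in CD8 control and 969 in CD4 control. It measured 13.8, 7.0 and 7.74 CPM in CD4 ThpokAD, against 4.01, 6.10 and 3.99 CPM in CD8 control and against 18.8, 21.7 and 16.7 CPM in CD4 control. No ranges overlapped, and CD4 ThpokAD lay between the controls. On the log2 scale the difference was -1.0 (95% interval -1.81 to -0.19) for CD4 ThpokAD against CD4 control and 1.02 (95% interval 0.20 to 1.83) for CD4 ThpokAD against CD8 control, and neither passed the adjusted threshold. CD8 control against CD4 control gave -2.02 and passed.

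Cystatin F, encoded by Cst7 at chr2:150570415-150578944 on the plus strand, is a cystatin of immune cells that enters endosomes and granules. Cst7 measured 173, 203 and 220.4 CPM in CD4 ThpokAD, against 237, 206 and 267 CPM in CD8 control and against 81.6, 88.9 and 89.1 CPM in CD4 control. Its order across groups was that of Ctsd, with CD4 ThpokAD and CD8 control overlapping above CD4 control. The log2 fold change against CD4 control was 1.20 (SE 0.140) in CD4 ThpokAD and 1.45 (SE 0.140) in CD8 control. CD4 ThpokAD differed from CD8 control by -0.25, with an interval of -0.56 to 0.06.

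The Cst7 promoter is shown because it holds TGTGGT, a core motif of Runx factors, which oppose Thpok in the choice between CD8 and CD4 fates. It was searched as TGTGGT and, on the other strand, ACCACA, and 14.0% of the 32851 promoters hold it. The 250 bases before the RefSeq start of Cst7 lie at chr2:150570165-150570414 on the plus strand of GRCm38.p6, with the motif in capitals, beginning 188 bases before the start.
Cst7: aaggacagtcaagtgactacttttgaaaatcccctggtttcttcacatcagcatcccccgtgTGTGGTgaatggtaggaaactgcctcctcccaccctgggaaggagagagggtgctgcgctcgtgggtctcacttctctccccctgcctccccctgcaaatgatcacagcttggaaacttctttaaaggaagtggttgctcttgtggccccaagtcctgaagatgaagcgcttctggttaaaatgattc
The other motif searched, TCACAC of T-box factors with its complement GTGTGA, was found 117 bases before the start of Ctsc and in 12.3% of all promoters. Of the 8 genes with a RefSeq promoter entry, Cst3, Ctla2a, Ctla2b, Ctsl and Ctss held none of the 3 motifs in this window, from which nothing follows about the factors. Ctsw and Ctsb had no entry. All of the Ctsl window, and most of the Ctsd and Cst3 windows, lie inside the gene spans given here. Those spans are from GENCODE M21 and begin upstream of the RefSeq starts of these genes.

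Ctla2a lies at chr13:60934155-60936625 and Ctla2b at chr13:60895350-60897447, both on the minus strand of the same stretch of chromosome 13. Ctla2a measured 203, 177 and 204 CPM in CD4 ThpokAD, against 327, 330.5 and 433 CPM in CD8 control and against 71.7, 54.0 and 43.7 CPM in CD4 control. Ctla2b measured 30.9, 30.4 and 30.1 CPM in CD4 ThpokAD, against 70.7, 53.4 and 58.3 CPM in CD8 control and against 15.5, 11.7 and 12.0 CPM in CD4 control. For both genes no groups overlapped, with CD8 control highest and CD4 ThpokAD between the controls, as for Ctsw.

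The log2 fold change of Ctla2a was 1.78 (SE 0.198) for CD4 ThpokAD against CD4 control, a ratio of 3.45 and the largest of the 10 genes in that comparison. It was 2.69 (SE 0.204) for CD8 control against CD4 control and -0.90 for CD4 ThpokAD against CD8 control. Ctla2b gave 1.22 (SE 0.190), 2.22 (SE 0.195) and -1.0 in the same comparisons. Leaving out CD4 ThpokAD replicate 1, or CD4 control replicate 2 or 3, ended the Ctla2b call of CD4 ThpokAD against CD4 control. Against CD8 control the Ctla2a call was lost without any single library of those groups, and the Ctla2b call without any CD4 ThpokAD library or without CD8 control replicate 1.

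Ctla2a and Ctla2b are close copies, so reads can be hard to assign. The transcripts Ctla2a-201 and Ctla2b-201 were identical at 660 of 704 aligned bases (93.8%). Of 1958 distinct stretches of the read length of 126 bases in Ctla2b transcripts, 2 also occur in a Ctla2a transcript. The ratio of Ctla2a to Ctla2b counts was 6.56, 5.85 and 6.77 in CD4 ThpokAD, 4.63, 6.19 and 7.43 in CD8 control and 4.62, 4.63 and 3.64 in CD4 control. All CD4 ThpokAD ratios lay above all CD4 control ratios, and the CD8 control ratios spread from one range to the other. With the counts of both genes summed, the log2 fold change was 1.69 for CD4 ThpokAD against CD4 control, 2.61 for CD8 control against CD4 control and -0.92 for CD4 ThpokAD against CD8 control. In GENCODE M21, 60.1% of the exon bases of Ctla2b and 16.3% of those of Ctla2a also belong to Gm49391, and 34.4% of those of Ctsd to Gm49369. For Ctsl, 26.9% of the exon bases are shared with Gm47123 on the opposite strand and 6.09% with the pseudogene Gm49230. These names are not entries of the count table, and the sources used here do not name the annotation behind the counts.

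The promoters of the Ctla2 pair are shown because both genes had the same order across groups, while their levels per length stood apart (92.3 and 17.7 CPM per kb in CD4 ThpokAD). The 250 bases before the RefSeq start lie at chr13:60936626-60936875 for Ctla2a and chr13:60897448-60897697 for Ctla2b, both on the minus strand of GRCm38.p6. In a pairwise alignment 209 of 228 paired bases were identical (91.7%), and 22 bases of each had no partner. Capitals mark the bases that differ or have no partner.
Ctla2a: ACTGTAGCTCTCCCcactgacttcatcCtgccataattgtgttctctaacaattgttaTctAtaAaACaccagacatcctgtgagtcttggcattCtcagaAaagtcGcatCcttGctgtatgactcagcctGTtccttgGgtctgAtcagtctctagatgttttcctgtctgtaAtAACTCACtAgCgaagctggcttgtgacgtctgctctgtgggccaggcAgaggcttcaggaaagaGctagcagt
Ctla2b: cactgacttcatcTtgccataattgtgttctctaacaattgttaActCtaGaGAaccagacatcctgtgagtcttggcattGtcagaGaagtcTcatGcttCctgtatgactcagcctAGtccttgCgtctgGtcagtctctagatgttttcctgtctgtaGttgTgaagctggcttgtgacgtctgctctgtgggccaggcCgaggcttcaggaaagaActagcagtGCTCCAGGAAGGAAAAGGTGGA
The unpaired bases lie at the far end and in a short inner stretch of Ctla2a, and next to the start of Ctla2b.

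Cystatin C, encoded by Cst3 at chr2:148871722-148875692 on the minus strand, measured 108, 129.8 and 104 CPM in CD4 ThpokAD, against 90.1, 125 and 113 CPM in CD8 control and against 78.4, 112 and 98.1 CPM in CD4 control. All 3 groups overlapped. The log2 difference was 0.25 (95% interval -0.16 to 0.66) for CD4 ThpokAD against CD4 control, 0.19 (95% interval -0.22 to 0.60) for CD8 control against CD4 control and 0.06 (95% interval -0.35 to 0.47) for CD4 ThpokAD against CD8 control. The intervals leave room for moderate differences either way.

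**Figure D2:**
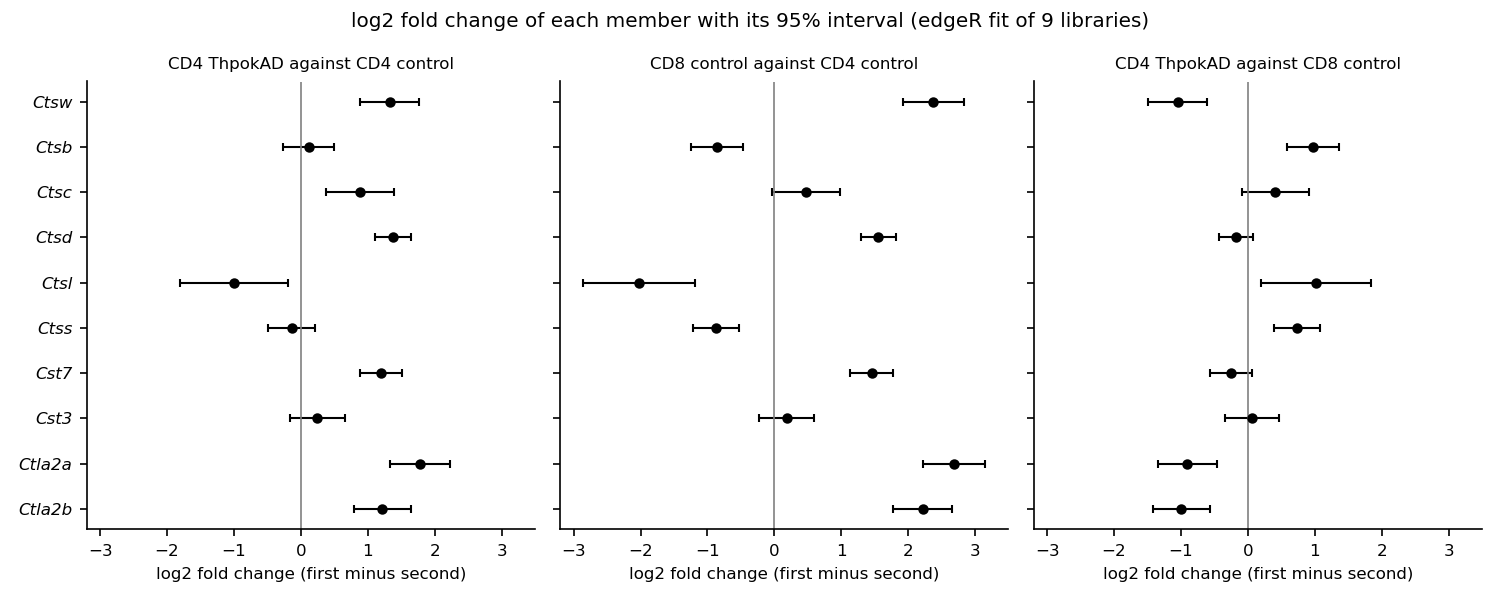
log2 fold change (x axes, first group minus second) of the 10 genes in the 3 comparisons, with points for the estimate and whiskers for the 95% interval of the edgeR fit over 9 libraries. In the left panel Ctla2a is farthest from 0 at 1.78, and in the right panel Ctsd, Cst7, Ctsc and Cst3 have intervals that span 0.

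A gene was called where its p in edgeR's quasi-likelihood test, adjusted by Benjamini-Hochberg over all 15738 genes, was under 0.05. For CD4 ThpokAD against CD4 control, 1.81% of all genes were called higher and 0.928% lower. Of the 10 genes, 5 were called higher (Ctsw, Ctsd, Cst7, Ctla2a and Ctla2b) and the other 5 were not called. For CD8 control against CD4 control, 5.13% of all genes were called higher and 6.55% lower. The same 5 genes were called higher there and 3 were called lower (Ctsb, Ctsl and Ctss). For CD4 ThpokAD against CD8 control, 4.63% of all genes were called higher and 1.91% lower. Ctsb and Ctss were called higher and Ctsw, Ctla2a and Ctla2b lower. Since the genes were chosen on these contrasts, nothing is read from the counts. The median log2 fold change of the 10 genes was 1.04, 0.96 and -0.06 in these comparisons, against 0.00, 0.01 and -0.01 over all genes tested. Without CD4 control replicate 2 the calls of Ctsw and Ctla2b against CD4 control were lost, leaving 3 of the 5.

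Levels of different genes were compared per kilobase of annotated exon, where the length is the union of the exons annotated for a gene. It was 6489 bases for Ctsl, 6051 for Ctsb and 5808 for Ctsc, but 2351 for Ctsd, 1887 for Ctsw and 986 for Cst7. Where the union is longer than the transcripts present, the value per kb is too low. The lengths of the transcripts present were not measured, so the order between genes depends on the annotation. In CD4 ThpokAD the order was led by Ctsd at 314 CPM per kb, followed by Ctsw at 222, Cst7 at 202, Ctsb at 146 and Ctss at 112. Ctsw and Cst7 overlapped in range, as did Cst7 with Ctsb, and Ctsb with Ctss. Ctla2a at 92.3 and Cst3 at 90.1 CPM per kb also overlapped, and Ctsc at 38.7, Ctla2b at 17.7 and Ctsl at 1.47 CPM per kb closed the order without overlap among them.

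In CD8 control Ctsw led at 459.9 CPM per kb, with no overlap with Ctsd at 355, Cst7 at 240.2 or Ctla2a at 173. Below them Cst3 at 86.4, Ctsb at 74.5 and Ctss at 67.2 overlapped with their neighbours in that order. Ctla2b at 35.3 and Ctsc at 29.1 CPM per kb overlapped too, and Ctsl measured 0.725 CPM per kb. In CD4 control the first places went to Ctsb at 135, Ctss at 123 and Ctsd at 121 CPM per kb, which overlapped. Ctsw at 88.6, Cst7 at 87.8 and Cst3 at 75.9 CPM per kb came next and overlapped with their neighbours, Ctsw with Ctsd as well. Ctla2a at 26.8 and Ctsc at 21 CPM per kb overlapped, and Ctla2b at 7.58 and Ctsl at 2.94 CPM per kb stood apart below them.

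**Figure D3:**
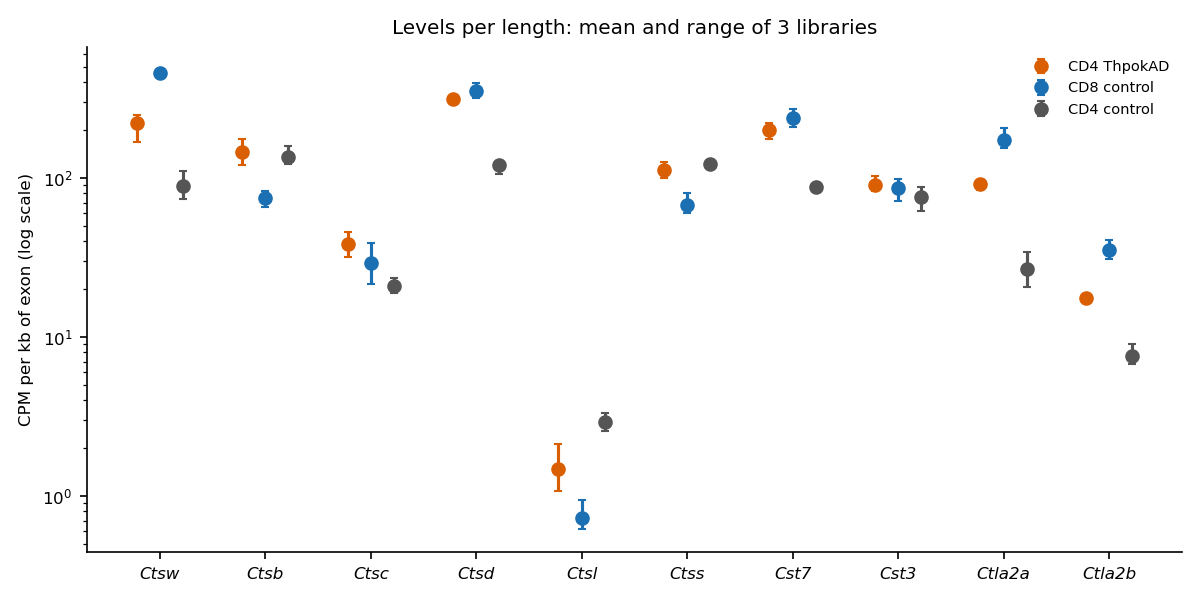
Level per length (y axis, CPM per kb of annotated exon, log scale) of the 10 genes, with a point for the mean and whiskers for the range of the 3 libraries in each group. Ctsw measures 222 CPM per kb in CD4 ThpokAD, 459.9 in CD8 control and 88.6 in CD4 control. On this measure Ctsl is the lowest gene in every group. The length is the union of annotated exons, so the order between genes depends on the annotation.

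Across the 9 libraries the levels of several members ran in parallel on the log2 scale. Pearson's r was 0.979 for Ctsd with Cst7, 0.983 for Ctsw with Ctla2a, 0.975 for Ctla2a with Ctla2b and 0.840 for Ctsb with Ctss. Ctsc with its inhibitor gene Cst7 gave 0.639. The points share libraries and fall into 3 groups, so that these values mostly restate the differences between groups.

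The genes whose pattern was most like each member were sought among 9623 other genes of at least 10 CPM in a group. For Ctsw this was Ly6c2 (r = 0.992 over 9 libraries), which encodes the surface protein Ly6C2, at 1259.7 CPM in CD4 ThpokAD, 2666 CPM in CD8 control and 456 CPM in CD4 control. Ctla2a was nearest to Klrd1 (r = 0.993), which encodes the receptor subunit CD94, then to the granzyme gene Gzmm (0.986) and to Id2 (0.983), a regulator of lymphocyte differentiation. Ctsd and Cst7 shared their nearest genes, Armc7 (0.993 and 0.989) and the kinase gene Sgk1 (0.991 and 0.989). Ctla2b was nearest to Snai3 (0.997), Ctss to Spsb1 (0.988), Ctsl to Cbarp (0.973), Ctsb to Ddias (0.972), Ctsc to Dek (0.959) and Cst3 to Cul9 (0.929). These are the highest r among 9623 genes over only 9 libraries in 3 groups. High values arise readily in such a search, also for a gene as level as Cst3, and are no sign of a link between genes.

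The gene lists used from here on were also chosen with earlier results of these data known, so their p-values only describe the fits. The rest of both families was sparse in these cells. Of 21 other cathepsin and related protease genes, 6 had no count in any library and 10 could be tested. Of 24 other cystatin genes, 19 were in the table, 12 of these had no count and 1 could be tested. None of the 11 tested genes was called by edgeR for CD4 ThpokAD against CD4 control, although 3 had an unadjusted p under 0.05 and DESeq2 called 3 (Ctsa, Ctse and Ctso). Over all genes, edgeR called 1.81% higher and 0.928% lower in that comparison. The median log2 fold change of the 11 was 0.28 there, -0.08 for CD8 control against CD4 control and 0.16 for CD4 ThpokAD against CD8 control.

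Ctso, which encodes cathepsin O, measured 58.6, 58.2 and 73.5 CPM in CD4 ThpokAD, against 97.0, 106 and 113 CPM in CD8 control and against 38.5, 48.8 and 44.3 CPM in CD4 control. No groups overlapped, and the order was that of Ctsw and the Ctla2 pair. Ctso rose in CD8 control against CD4 control by 1.26 on the log2 scale (edgeR adjusted p = 0.00122). In CD4 ThpokAD it fell against CD8 control by 0.73 (edgeR adjusted p = 0.0287), a call that was lost when CD4 ThpokAD replicate 1 or 2, any CD8 control library or CD4 control replicate 3 was left out, with adjusted p up to 0.106. Against CD4 control it was 0.53 higher in CD4 ThpokAD (edgeR adjusted p = 0.136).

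Lgmn encodes legumain, an asparagine-specific lysosomal protease that matures cathepsins. It measured 19.8, 29.8 and 11.7 CPM in CD4 ThpokAD, against 6.15, 5.57 and 1.82 CPM in CD8 control and against 8.14, 10.7 and 10.5 CPM in CD4 control. Lgmn rose in CD4 ThpokAD against CD8 control by 2.18 on the log2 scale (edgeR adjusted p = 0.0412), a call kept in only 1 of 9 fits with a library left out, that without CD4 ThpokAD replicate 3. The call was also lost with no filter on low counts (adjusted p = 0.0543), with the replicate block (0.0525) and with only the 6 libraries compared (0.0876), all in edgeR. Ctsf, which encodes cathepsin F, had 114, 7 and 1 counts in CD4 ThpokAD, none in CD8 control and 69, 121 and 25 in CD4 control. Ctsf fell in CD8 control against CD4 control (edgeR adjusted p = 0.0393). With 3 counts over the group as the floor, pooled counts put CD8 control at least 120.2-fold below CD4 control. That value does not cover the spread between replicates. Leaving out any CD8 or CD4 control library, or CD4 ThpokAD replicate 2, raised the edgeR adjusted p to between 0.0531 and 0.103.

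The other tested family genes of at least 50 CPM in a group were not called by edgeR in any comparison with all libraries in the fit. Ctsa, which encodes the lysosomal carboxypeptidase cathepsin A, averaged 370.0 CPM in CD4 ThpokAD, 358 CPM in CD8 control and 274 CPM in CD4 control, with a log2 difference of 0.43 for CD4 ThpokAD against CD4 control (edgeR adjusted p = 0.0919). Ctse, which encodes the aspartic protease cathepsin E, averaged 23.6, 31.2 and 50.0 CPM in the same groups, with a log2 difference of -1.08 for CD4 ThpokAD against CD4 control (edgeR adjusted p = 0.0719). The cathepsin Z gene Ctsz averaged 79.6, 79.3 and 84.1 CPM, and the tripeptidyl peptidase gene Tpp1 121, 124 and 118 CPM. The cystatin B gene Cstb averaged 40.05 CPM in CD4 ThpokAD, 35.9 CPM in CD8 control and 33.0 CPM in CD4 control.

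**Figure D4:**
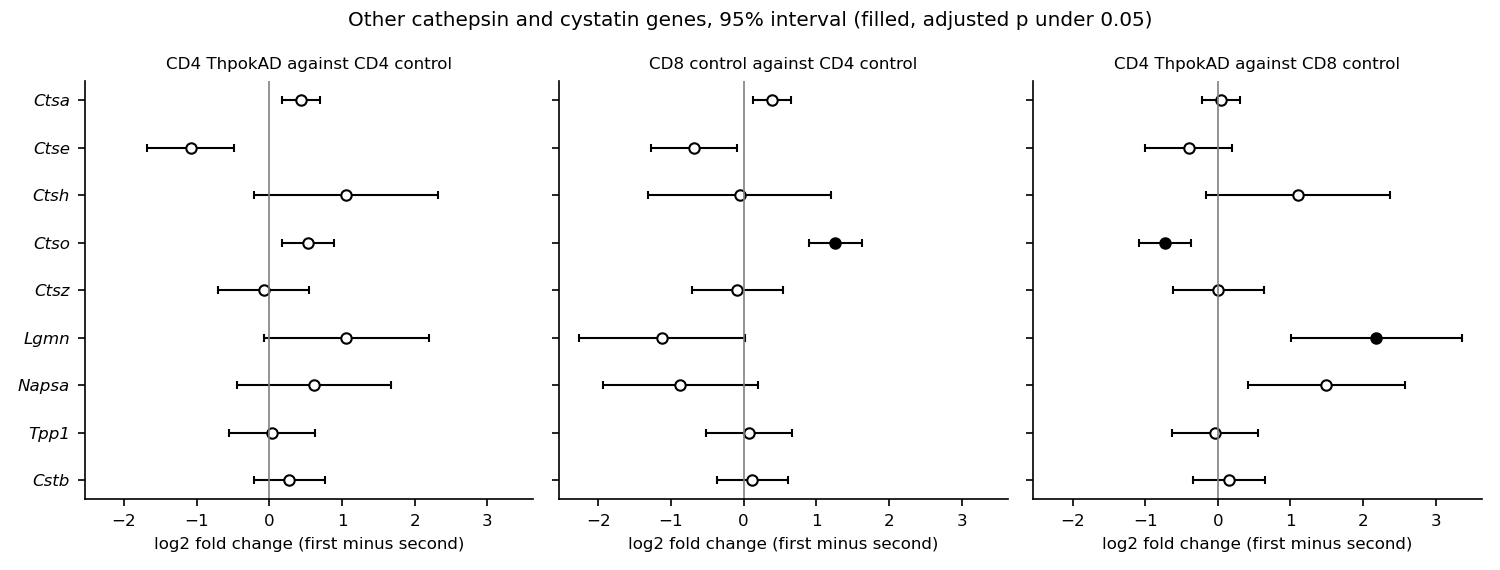
log2 fold change (x axes, first group minus second) with 95% interval for 9 tested cathepsin and cystatin genes outside the list, leaving out Ctsf and Tinagl1, which had no count in CD8 control. Filled points mark adjusted p under 0.05, which Ctso passes in the middle and right panels and Lgmn in the right panel only.

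Cathepsins act on the granule proteases of cytotoxic cells, so 11 granzyme and perforin genes were examined beside them, of which 5 were tested. All 5 rose in CD4 ThpokAD and in CD8 control against CD4 control (Gzma, Gzmb, Gzmk, Gzmm and Prf1). Over all genes, 1.81% were called higher in CD4 ThpokAD and 5.13% in CD8 control against CD4 control. For CD4 ThpokAD against CD8 control, 4.63% of all genes were called higher. Granzyme B transcripts (Gzmb) averaged 721 CPM in CD4 ThpokAD, 301 CPM in CD8 control and 45.2 CPM in CD4 control, and rose in CD4 ThpokAD against CD4 control by 4.0 on the log2 scale (edgeR adjusted p = 0.000122). Perforin transcripts (Prf1) averaged 522 CPM in CD4 ThpokAD, 522 CPM in CD8 control and 53.2 CPM in CD4 control. Against CD8 control, Gzmb alone was called, higher in CD4 ThpokAD by 1.26 (edgeR adjusted p = 0.00753). The summed level of the 11 genes was 2472 to 2847 CPM in CD4 ThpokAD, 1231 to 1759 CPM in CD8 control and 79.8 to 149.9 CPM in CD4 control. All 5 calls against CD4 control were kept whichever library was left out.

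Among 33 genes of lysosomal proteins and their delivery, 1 rose in CD4 ThpokAD against CD4 control. This was Smpd1, which encodes acid sphingomyelinase, at 79.4, 68.0 and 85.9 CPM in CD4 ThpokAD, against 100.4, 119.9 and 113 CPM in CD8 control and against 31.2, 19.7 and 36.9 CPM in CD4 control. Its log2 fold change was 1.41 (edgeR adjusted p = 0.0144), and it lost the call without CD4 ThpokAD replicate 1 or 3 or CD4 control replicate 1. In CD8 control against CD4 control, Smpd1, Gnptg and Laptm5 rose and Gla fell, and only Laptm5 lost its call when a library was left out. Over all genes, 1.81% were called higher in CD4 ThpokAD against CD4 control. In CD8 control against CD4 control 5.13% were called higher and 6.55% lower, so these counts are not read as a result about lysosomal genes. The median log2 fold change of the 33 genes was -0.01 for CD4 ThpokAD against CD4 control and -0.03 for CD8 control against CD4 control. Lamp1, the most used lysosomal membrane marker, averaged 201.4 CPM in CD4 ThpokAD, 229 CPM in CD8 control and 272 CPM in CD4 control, and its log2 difference of -0.43 for CD4 ThpokAD against CD4 control had an edgeR adjusted p of 0.144.

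Other cell types that a sort can carry over were read from marker lists. The 11 genes of MHC class II processing, which T cells of the mouse barely express, summed to 895, 1701 and 1806 CPM in CD4 ThpokAD, 279.5 to 379 CPM in CD8 control and 876 to 1643 CPM in CD4 control. Of these, 5 rose in CD4 ThpokAD against CD8 control (Cd74, H2-Aa, H2-Ab1, H2-Eb1 and H2-Ob), where 4.63% of all genes were called higher. The same 5 fell in CD8 control against CD4 control, where 6.55% of all genes were called lower. Cd74, H2-Aa and H2-Ab1 kept both calls whichever library was left out, whereas H2-Eb1 and H2-Ob lost theirs without some single libraries. None was called for CD4 ThpokAD against CD4 control, where none had an unadjusted p under 0.05 in edgeR and DESeq2 called none. Cd74, the invariant chain that cathepsins S and L cut, averaged 781 CPM in CD4 ThpokAD, 164 CPM in CD8 control and 582 CPM in CD4 control.

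The 17 myeloid markers summed to 512 to 690.2 CPM in CD4 ThpokAD, 210.0 to 458 CPM in CD8 control and 283 to 468 CPM in CD4 control, and none was at 0 in any group. Of these, 5 rose in CD4 ThpokAD against CD8 control (Csf1r, Cd68, Cd14, Fcer1g and C1qc), where 4.63% of all genes were called higher. In CD4 ThpokAD against CD4 control 2 rose (Cd68 and Itgam), where 1.81% of all genes were called higher. In CD8 control against CD4 control Itgam rose and Fcer1g fell, where 5.13% of all genes were called higher and 6.55% lower. Itgam averaged 34.6 CPM in CD4 ThpokAD, 33.0 CPM in CD8 control and 1.87 CPM in CD4 control. Whether its transcripts came from myeloid cells or from the sorted T cells was not tested. Most of these myeloid calls were lost when 1 of several libraries was left out. The 10 dendritic cell markers, 4 of them class II genes, summed to 821 to 1751 CPM in CD4 ThpokAD, 239.9 to 375 CPM in CD8 control and 821 to 1560 CPM in CD4 control, with Siglech at 0 in both CD4 groups. The 4 calls of this list in each comparison with CD8 control were the class II genes already counted above, and no other dendritic cell marker was called. Xcr1 averaged 17.6 CPM in CD4 ThpokAD, 13.2 CPM in CD8 control and 10.1 CPM in CD4 control. In the same order Flt3 averaged 2.83, 2.51 and 6.11 CPM and Zbtb46 8.77, 4.39 and 12.4 CPM. Cd209a averaged 16.5, 0.669 and 6.11 CPM and Clec9a 0.0912, 1.99 and 1.09 CPM. Flt3, Zbtb46 and Cd209a had their lowest mean in CD8 control, like the class II sum, whereas Xcr1 and Clec9a did not. The 7 B cell markers summed to 269 to 463 CPM in CD4 ThpokAD, 244 to 776 CPM in CD8 control and 465 to 646 CPM in CD4 control. Of these, Cd79b rose in CD8 control against CD4 control (edgeR adjusted p = 0.0288), where 5.13% of all genes were called higher. Ctsb, Ctss and Ctsl are highly expressed in such antigen-presenting cells. Like the class II sum, these genes were higher in both CD4 groups than in CD8 control. Between the CD4 groups the ranges of Ctsb, Ctss and the class II sum overlapped, but those of Ctsl did not. For CD4 ThpokAD against CD4 control, Ctsl differed by -1.0 on the log2 scale (not called), while the median of the class II genes was 0.16. The myeloid sums went the other way from Ctsl, lying higher in CD4 ThpokAD. The part of antigen-presenting cells in the levels of Ctsb, Ctss, Ctsl, Cst3 and Lgmn was not tested.

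**Figure D5:**
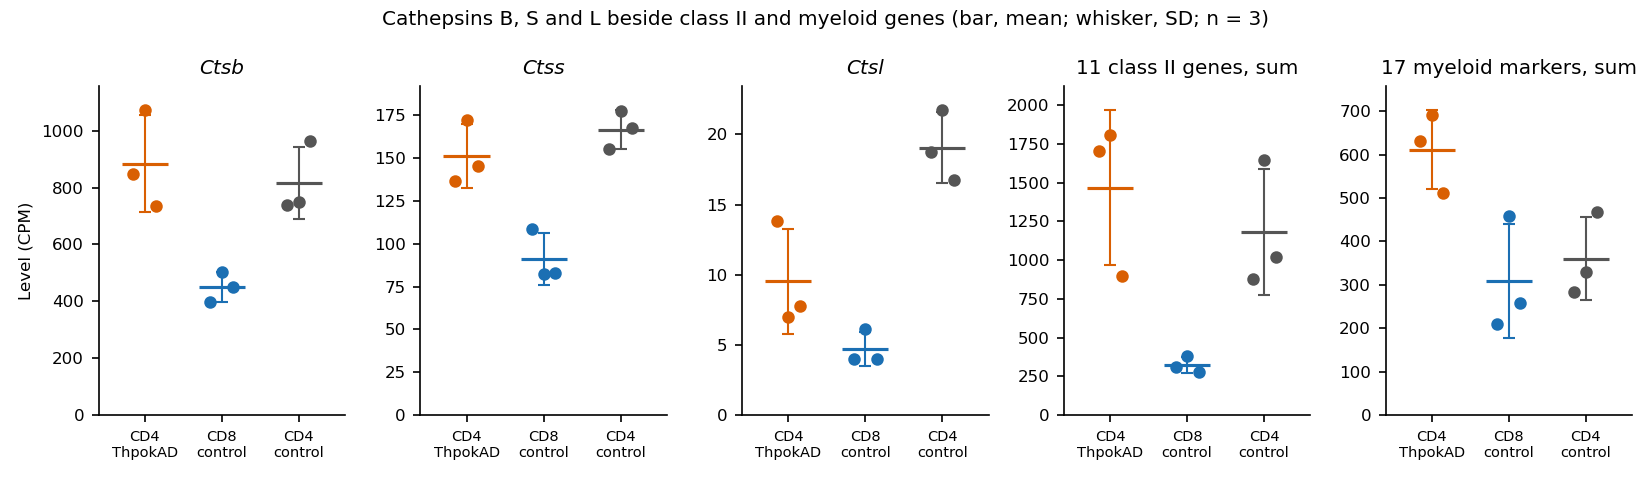
Levels in CPM (y axes from 0) of Ctsb, Ctss and Ctsl beside the summed level of 11 MHC class II genes and of 17 myeloid markers, by library, with a bar for the mean and a whisker for the SD. The class II sum is 279.5 to 379 CPM in the CD8 control libraries, below every CD4 library, as for Ctsb, Ctss and Ctsl, whereas the myeloid sums of CD8 control and CD4 control overlap.

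NK cells carry Ctsw, Cst7 and granzymes too. The 5 NK markers summed to 77.5 to 137 CPM in CD4 ThpokAD, 154 to 169 CPM in CD8 control and 8.12 to 16.0 CPM in CD4 control. Klra8 had no count in CD4 ThpokAD, and Ncr1, Klra8 and Klra4 had none in CD4 control. Klrb1c, Klra4 and Klre1 rose in CD4 ThpokAD and in CD8 control against CD4 control. Over all genes, 1.81% and 5.13% were called higher in these 2 comparisons. Memory CD8 T cells are known to display several such NK receptors themselves. The part of NK cells in the levels of Ctsw, Cst7, Ctla2a and Ctla2b was not tested.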

How the data were processed

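RNA of 9 samples was sequenced as paired-end reads of 126 bases from low-input libraries that do not mark strand, per the labels' protocols. Per the submitters' processing notes, the tools were bcl2fastq 2.17, STAR, Trimmomatic, HTSeq and DESeq2 and the build was mm10, without roles. The sources used here give neither annotation nor strand setting. The authors deposited raw counts, as whole numbers per gene symbol. A second deposited table of scaled values was not used for any result.

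Samples were grouped by title, 3 per group. Counts were filtered with filterByExpr (minimum count 10, minimum total 15), scaled by TMM and fitted for all 9 libraries together with the quasi-likelihood test of edgeR 4.0.16 (R 4.3.3), Benjamini-Hochberg adjusted within each comparison. SE is the log2 fold change over the root of F, and 95% intervals use its t quantile. The fit was tested on simulated data. CPM values are counts over TMM-scaled library size, and a lower bound on a fold takes 3 counts over a group with none. Intervals cover counting and replicate spread only, and reads are not independent molecules. The lower bounds pool the counts of each group and do not cover the spread between replicates. Alternatives were DESeq2 1.42.0, its size factors, no filter, a replicate block, only the 6 libraries compared, leaving out each library, and summing Ctla2a with Ctla2b.

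Members and lists were chosen with earlier results of these data known. All 10 members were named, with the genes of the other lists that were called and examples of those with at least 50 CPM in a group. Cstb, Lamp1 and Fdft1 were named for their role or overlap, and the dendritic cell markers outside class II were all named. The likeness of patterns is Pearson's r of log2(CPM + 0.5). Exon lengths (the union of the exons annotated for a gene) and coordinates are from GENCODE M21 on GRCm38, 1-based, and promoters are from RefSeq. The lists also held plasma cell and erythroid markers, of which none was called in edgeR in any comparison. Their sums differed widely between libraries of a group. The plasma cell sum was 4.94 to 49.6 CPM in CD4 ThpokAD, 0 to 288 in CD8 control and 8.95 to 57.2 in CD4 control. The erythroid sum was 6.59 to 102, 11.8 to 52.3 and 4.06 to 119 CPM in the same groups. At an unadjusted p under 0.05, 1 plasma cell marker passed in each comparison with CD8 control, where DESeq2 called 1, and no erythroid marker passed.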

Additional observations from a re-analysis of the deposited data

How the results depend on the processing

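No fold change of a member changed sign where it was called. The same-numbered libraries did not deviate together over all genes (r of deviations from group means -0.0431 to 0.0598). The labels do not say whether the numbers pair libraries, and such an r cannot exclude a pairing that touches few genes. With the replicate block the genes called went from 431 to 281 for CD4 ThpokAD against CD4 control and from 1030 to 684 for CD4 ThpokAD against CD8 control, where members called went from 5 to 3 (Ctss and Ctla2a lost) and other cathepsins and cystatins from 2 to 1. DESeq2 called 1290 genes for CD4 ThpokAD against CD4 control, 2977 against 1839 for CD8 control against CD4 control and 2175 for CD4 ThpokAD against CD8 control, and 3, 3 and 4 of the other cathepsins and cystatins, against 0, 2 and 2. For CD4 ThpokAD against CD8 control that family count was 1 with no filter and 0 with only the 6 libraries compared. Leaving out 1 library gave 181 to 477 genes for CD4 ThpokAD against CD4 control (fewest without CD4 ThpokAD replicate 1), 1058 to 1667 for CD8 control against CD4 control (fewest without CD4 control replicate 2) and 589 to 788 for CD4 ThpokAD against CD8 control (fewest without CD4 ThpokAD replicate 1). Members called then ranged over 3 to 6, 8 to 8 and 2 to 5, and the other family genes over 0 to 0, 1 to 3 and 0 to 3. A fit with a library left out has fewer residual degrees of freedom. The cause of the other changes was not tested. Ctsd, Cst7 and Ctla2a kept their calls for CD4 ThpokAD against CD4 control, all 8 called members theirs for CD8 control against CD4 control, and Ctsw and Ctsb theirs for CD4 ThpokAD against CD8 control, under every alternative run. Members were chosen on differences in these same libraries, so kept calls describe the fits and add no support for the differences. Spread between libraries of a group limits the precision of Ctsl, Lgmn and Ctsf. In CD4 ThpokAD Ctsl had 277, 128 and 146 counts and Lgmn 397, 544 and 220.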

Other observations

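Some family genes under the filter on low counts had counts in 1 to 4 libraries. These were picked after their values were seen and were not compared between groups. The cathepsin K gene Ctsk, known from osteoclasts, had 58, 22 and 0 counts in the CD4 ThpokAD libraries and none in the other 6 libraries. The stefin gene Stfa2l1 had 6, 7 and 12 counts in the CD8 control libraries, 0 in each CD4 ThpokAD library and 2 in CD4 control replicate 3. Ctsj, a cathepsin gene of the mouse placenta, had 15 counts in CD8 control replicate 2 and none in any other library. Fetub, which encodes the cystatin-related protein fetuin-B, had 18 counts in CD4 ThpokAD replicate 1 and none elsewhere.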
